A study of Mus musculus with 20 samples.

Results

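Magoh, Rbm8a and Eif4a3 encode the 3 proteins at the centre of the exon junction complex, and their transcripts were followed through the resumption of meiosis in mouse oocytes. The members were taken by symbol, and all 3 of them were listed in both deposited tables, among 7543 genes on ribosomes and 7917 genes in total RNA (7346 genes in both). They were chosen for an early and large rise of Magoh compared with its partners, a rise that was largest on ribosomes. Their values on ribosomes, and on ribosomes relative to total RNA, are therefore given as a description with no test. Total RNA was tested. The members were taken with earlier results of these data known, so that test may not be independent of the choice.

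The oocytes came from 3-week-old C57BL/6 females that were Zp3-Cre+ and carried RiboTag, an allele that gives ribosomes an HA epitope after Cre recombination. The Zp3 promoter drives Cre in growing oocytes, so tagged ribosomes are those of the oocyte. The females had received 5 IU PMSG, a gonadotropin, and 44 h later the oocytes were stripped of cumulus cells and held in prophase I with 1 µM cilostamide, an inhibitor of the phosphodiesterase that otherwise lets meiosis resume. The 0 h group was this arrested state. The other groups were collected after transfer to medium without the inhibitor, in early prometaphase I at 2 h, in its middle at 4 h, in its late phase at 6 h and in metaphase I at 8 h. Each of the 5 times had 2 ribosome-bound libraries, from HA immunoprecipitation, and 2 total RNA libraries, from 200 oocytes a sample, which makes 10 groups and 20 libraries. All groups shared the genotype, the hormone and the exposure to cilostamide. No control without the tag or without Cre was analysed here. The labels do not say whether duplicates came from separate animals or cultures, so p-values measure the spread between these samples, which may be technical.

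Values are the authors' scaled CPM, read counts relative to library size, and the listed genes of a library summed to 968768 to 1052767. The spacing of the values within a library corresponded to 27571236 to 51714900 reads in listed genes, so that a value of 10 stood for 282 to 533 reads. On that inference 606 to 8003 reads lay behind each value of Magoh, 543 to 1710 behind Rbm8a and 1696 to 6316 behind Eif4a3. By read number alone counting error would be small, and its part in the spread between duplicates was not tested. All 12 oocyte markers (among them Gdf9, Zp3 and Ddx4) were listed in both tables. Of 14 granulosa and cumulus markers, 4 were listed on ribosomes (Fshr, Cyp19a1, Serpine2 and Nr5a2) and 6 in total RNA. Of 10 markers of blood, stroma and endothelium, 2 were listed in each table (Pecam1 and Tek). Every listed gene reached a value of at least 10.3 in some library. A gene that was not listed may therefore still have been expressed at a lower level.

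The exon junction complex is laid down on mRNA by the spliceosome, just upstream of each joined exon pair. Eif4a3, a DEAD-box ATPase, clamps the RNA, and the Magoh-Rbm8a heterodimer locks it in the closed form. Casc3 (also called MLN51 or Barentsz) binds the outside of this core. The complex travels with the mRNA to the cytoplasm, where it bears on export, localization, translation and nonsense-mediated decay, until a translating ribosome and the removal factor Pym1 strip it off. In fly oocytes the Magoh homologue, mago nashi, is needed to localize oskar mRNA. Fully grown mouse oocytes are almost silent in transcription, and the proteins made during meiosis come from stored mRNAs, many of which are switched on by lengthening of the poly(A) tail through elements near the 3′ end.

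The 3′ ends of the core transcripts differed in length and in these letters. In the GENCODE vM21 annotation of mm10, Magoh (ENSMUSG00000028609.6) lies on chromosome 4, 107879755 to 107887424, plus strand, and has 1 coding transcript of 692 bases in 5 exons, with 148 bases of 3′ UTR. Rbm8a (ENSMUSG00000038374.10) lies on chromosome 3, 96629933 to 96633791, plus strand, and its longest coding transcript has 2757 bases in 5 exons, of which 2219 are 3′ UTR. Eif4a3 (ENSMUSG00000025580.15) lies on chromosome 11, 119288363 to 119300089, minus strand, and its longest coding transcript has 1509 bases in 12 exons, with 180 bases of 3′ UTR. Magoh is thus the shortest mRNA of the core, and Rbm8a is mostly 3′ UTR. The last 100 bases of each 3′ UTR were searched on the sense strand for TTTTAT and TTTTAAT, the letters of the cytoplasmic polyadenylation element, and for the polyadenylation signals AATAAA and ATTAAA. For each gene 1 site of the window is given with its flanks, 5′ to 3′, with the matched letters in capitals, to show the element in Magoh and the polyadenylation signals of the others.
Magoh TTTTAT, chr4:107887347-107887376, plus strand: attggggcaatTTTTATaaacaataaatga
Rbm8a AATAAA, chr3:96633754-96633783, plus strand: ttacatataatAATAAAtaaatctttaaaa
Eif4a3 ATTAAA, chr11:119288369-119288398, minus strand: taaccttttacATTAAAcgtggacattttc
Casc3 AATAAA, chr11:98833772-98833801, plus strand: gacttggagatAATAAAatttagactgtag
Magoh had TTTTAT 67 bases before its annotated end, ahead of AATAAA at 57 and again at 40 bases. The first of these AATAAA copies is also seen, in lower case, in the Magoh line. Rbm8a had AATAAA 27 bases before its end, in its line, and an overlapping copy at 23 bases. Rbm8a, Eif4a3 and Casc3 had neither TTTTAT nor TTTTAAT in this window, which says only that these letters were not in it. Over the whole 3′ UTR Rbm8a and Casc3 each had 1 TTTTAT and 1 TTTTAAT, Eif4a3 had 0 of either, and Magoh had the 1 TTTTAT already given. Over 7508 genes of the ribosome-bound table with at least 100 bases of 3′ UTR, 16.3% had TTTTAT in the window, 6.03% had TTTTAAT, 67.2% had AATAAA and 22.5% had ATTAAA. The TTTTAT of Magoh is thus a feature that 16.3% of these genes hold in the window, given here as a description and not as a tested site.

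Magoh, the dimer partner of Rbm8a, was several times higher on ribosomes from 2 h on than in arrested oocytes. Its ribosome-bound values (replicates 1 and 2) were 14.4 and 26.7 at 0 h, 55.997 and 59.996 at 2 h, 123 and 121 at 4 h, 187 and 181 at 6 h, and 170 and 183 at 8 h. All libraries at 2 h and later lay above both 0 h libraries, each later time lay above the one before it up to 6 h, and the 6 h and 8 h libraries overlapped. The means were 20.5 ± 8.68 at 0 h, 58.0 ± 2.83 at 2 h, 122 ± 1.25 at 4 h, 184 ± 4.71 at 6 h and 177 ± 8.82 at 8 h (SD, n = 2). The log2 differences from 0 h, on log2(value + 1), were 1.52 at 2 h, 2.58 at 4 h, 3.16 at 6 h and 3.10 at 8 h, each with a standard error of 0.23. By size these were the 13th highest of 7543 genes at 2 h, the highest at 4 h and the second highest at the 2 later times. A high rank follows from the choice of Magoh for this rise and is no result of its own. From time to time the steps were 1.52, 1.06, 0.59 and -0.06, so most of the difference was in place by 4 h.

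Of the Magoh duplicates on ribosomes those at 0 h lay farthest apart on the log scale, and replicate 1 was the lower. Without 0 h replicate 1 the log2 difference was 1.09 at 2 h and 2.68 at 8 h, and without 0 h replicate 2 it was 1.94 and 3.53. Across all genes 1.47% passed the test on ribosomes at 2 h, 15.7% at 4 h, 27.9% at 6 h and 42.1% at 8 h, and nothing is read from Magoh against these shares because the choice of members used this contrast. The summed value of the 4 listed granulosa markers moved with Magoh, at 199 to 207 at 0 h, 244 to 256 at 2 h, 302 to 315 at 4 h, 446 to 451 at 6 h and 524 to 529 at 8 h. Most of this gain was in Serpine2, from a mean of 111 at 0 h to 369 at 8 h (log2 change 1.74), and Cyp19a1 also rose (1.31), while Fshr (0.61, limma adjusted p = 0.28) and Nr5a2 (0.27, limma adjusted p = 0.471) did not pass. The summed oocyte markers went from 40670 to 49488 at 0 h down to 22677 to 26061 at 8 h, with 3 of 12 up and 8 down. The part of either list in the Magoh values was not tested. The other 10 of the granulosa list, including Foxl2, Amh and Star, were not listed on ribosomes, which does not show that they were absent.

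Rbm8a, which forms the obligate dimer with Magoh, differed less from 0 h on ribosomes than Magoh, with its higher values from 4 h on. Its ribosome-bound values were 14.9 and 29.7 at 0 h, 19.4 and 16.7 at 2 h, 38.3 and 34.3 at 4 h, 34.7 and 38.6 at 6 h, and 27.4 and 36.9 at 8 h. The 4 h and 6 h libraries lay above both 0 h libraries, while those at 2 h and 8 h overlapped them. Means went from 22.3 ± 10.5 at 0 h to 36.7 ± 2.74 at 6 h and 32.1 ± 6.75 at 8 h (SD, n = 2). The log2 differences from 0 h were -0.22, 0.75, 0.77 and 0.57 at 2, 4, 6 and 8 h, each with a standard error of 0.33. The 8 h difference was 0.095 without 0 h replicate 1 and 1.04 without 0 h replicate 2, so it rested on which arrested library was used. As with Magoh, replicate 1 at 0 h was the lower, which also held for Eif4a3 and Casc3 on ribosomes. Over all genes the ribosome-bound duplicates at 0 h correlated at 0.949, the lowest of the 10 groups. Every ribosome-bound difference from 0 h uses these libraries.

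Eif4a3, the RNA clamp, went the other way at the late times. Its ribosome-bound values were 111 and 158 at 0 h, 143 and 151 at 2 h, 138 and 106 at 4 h, 90.7 and 91.7 at 6 h, and 82.2 and 52.2 at 8 h. The libraries at 2 h and 4 h overlapped those at 0 h, and all 4 libraries at 6 h and 8 h lay below them. Means were 135 ± 33.5 at 0 h, 91.2 ± 0.708 at 6 h and 67.2 ± 21.2 at 8 h (SD, n = 2). The log2 differences from 0 h were 0.15, -0.13, -0.53 and -1.005 at 2, 4, 6 and 8 h, each with a standard error of 0.23. The 3 core members thus held 3 different courses on ribosomes.

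**Figure D1:**
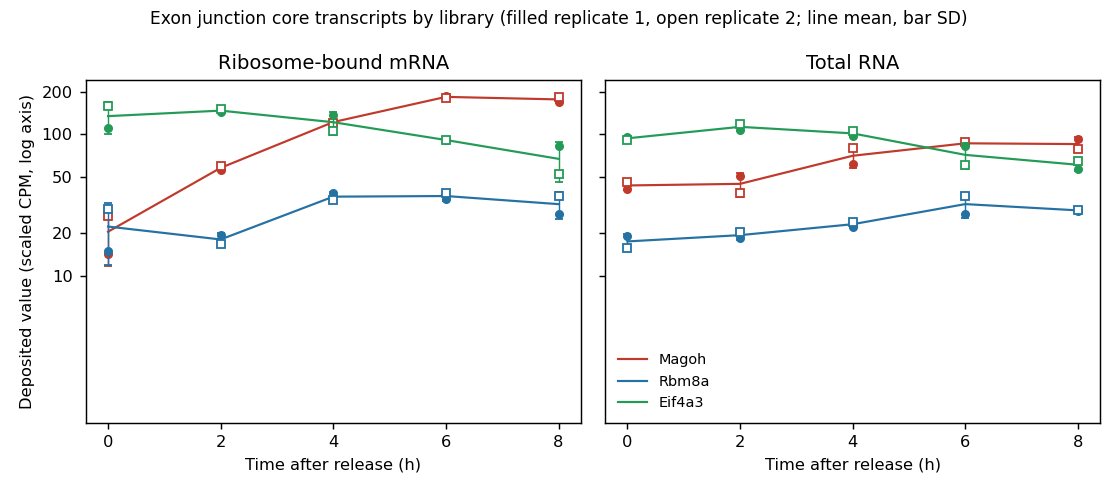
Deposited value (scaled CPM, log axis) of Magoh, Rbm8a and Eif4a3 against hours after release, on ribosomes (left) and in total RNA (right). Filled and open symbols are replicates 1 and 2, lines join means and bars are SD (n = 2). On ribosomes Magoh goes from 20.5 to 177 between 0 h and 8 h and in total RNA from 43.6 to 85.4, while Eif4a3 on ribosomes goes from 135 to 67.2.

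Reads from near-identical copies touch the members unequally. Of the 50-base words of the longest coding transcript, Magoh shared 0 of 643 with the transcripts of other genes, Rbm8a shared 138 of 2708 (with Rbm8a2) and Eif4a3 shared 356 of 1460 (with Gm5576, Gm5580 and Gm8994). Magohb, the paralog of Magoh on chromosome 6 (131284388 to 131293244), and Rbm8a2 were not listed in either table and were not analysed here. That they were not listed does not show that they were absent. Gm5576 was listed on ribosomes at 3.69 to 14.8. The sources used here do not say how reads shared by these copies were counted, so the level of Eif4a3 carries that uncertainty.

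In total RNA, where values are each transcript's share of a library and not its amount, Magoh rose at 8 h. Its partners did not pass the test. Magoh stood at 41.2 and 45.9 at 0 h, 50.8 and 38.6 at 2 h, 61.4 and 79.9 at 4 h, 85.0 and 87.9 at 6 h, and 92.5 and 78.2 at 8 h. The 2 h libraries overlapped those at 0 h, and the 6 libraries from 4 h on all lay above them. Means were 43.6 ± 3.28 at 0 h and 85.4 ± 10.1 at 8 h (SD, n = 2), a log2 change of 0.95 ± 0.22 (SE), with an adjusted p of 0.0164 by limma with Benjamini-Hochberg adjustment over all 7917 genes. Of the 3 members, 1 passed at 8 h, where 3.97% of all genes did. Magoh was chosen for its rise with these data known. This call may therefore not be independent of the choice, and it is not read against that share. At 6 h the change was as large, 0.97 ± 0.22, with an adjusted p of 0.0845 in a comparison where 0.202% of genes passed. At 4 h it was 0.67 (unadjusted p = 0.00606, adjusted p = 0.998), and at 2 h 0.03, by limma over all genes. No gene passed in total RNA at 2 h or 4 h (0% in both), where limma gave 226 and 347 genes an unadjusted p under 0.05.

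The Magoh call at 8 h in total RNA was narrow. Leaving out replicate 1 of 0 h gave 0.88 with a limma adjusted p of 0.202, and leaving out replicate 2 of 0 h gave 1.03 with 0.0618. Leaving out replicate 1 of 8 h gave 0.83 with an adjusted p of 0.122 by limma, and the call held when replicate 2 of 8 h was left out. With only the 0 h and 8 h libraries in the fit the adjusted p was 0.0508. Each sample was made from 200 oocytes, and the values are shares of a library. More Magoh RNA per oocyte and less of the other RNAs therefore cannot be told apart.

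Rbm8a in total RNA gave 19.2 and 15.9 at 0 h, 18.4 and 20.4 at 2 h, 22.3 and 24.1 at 4 h, 27.6 and 36.7 at 6 h, and 28.8 and 29.3 at 8 h. All libraries from 4 h on lay above both 0 h libraries. Its log2 change was 0.83 ± 0.29 at 6 h (limma adjusted p = 0.436) and 0.70 ± 0.29 at 8 h (adjusted p = 0.198), so a change of the size seen in Magoh was neither shown nor excluded. Eif4a3 gave 95.7 and 91.9 at 0 h, 107 and 119 at 2 h, 97.5 and 106 at 4 h, 82.1 and 61.1 at 6 h, and 57.1 and 64.9 at 8 h. Its 2 h and 4 h libraries lay above and its 6 h and 8 h libraries below those at 0 h. The log2 change was 0.27 ± 0.19 at 2 h (limma adjusted p = 1.00), -0.40 ± 0.19 at 6 h (adjusted p = 0.643) and -0.62 ± 0.19 at 8 h (adjusted p = 0.0851).

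The balance between the members was compared per kb of the longest coding transcript, within each library, which removes the library's own scale. At 0 h the mean ribosome-bound level per kb was 29.7 for Magoh, 8.10 for Rbm8a and 89.2 for Eif4a3, and at 8 h it was 255, 11.7 and 44.5. In total RNA the levels per kb were 62.9, 6.36 and 62.1 at 0 h and 123, 10.5 and 40.4 at 8 h. In total RNA of arrested oocytes Magoh and Eif4a3 thus had like levels per kb, and on their ribosomes Eif4a3 was the higher of the pair. Levels and ratios between genes depend on the length used. The shortest coding transcript of Eif4a3 has 916 bases, not 1509, and which forms the oocytes held was not tested.

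The ratio of Magoh to Rbm8a per kb on ribosomes was 3.84 and 3.58 at 0 h, 11.5 and 14.3 at 2 h, 12.8 and 14.1 at 4 h, 21.5 and 18.6 at 6 h, and 24.8 and 19.7 at 8 h. These replicates lay close together at 0 h, where both genes were lower in replicate 1, and no later library overlapped them. In total RNA the same ratio was 8.57 and 11.5 at 0 h and 12.8 and 10.6 at 8 h, with overlap between the groups. The partners of the dimer kept a like ratio in total RNA while their ratio on ribosomes went from below that of total RNA to above it.

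Against Eif4a3 the ratio of Magoh per kb moved in both kinds of RNA. On ribosomes it was 0.283 and 0.367 at 0 h, 0.854 and 0.864 at 2 h, 1.95 and 2.49 at 4 h, 4.50 and 4.30 at 6 h, and 4.52 and 7.64 at 8 h. In total RNA it was 0.940 and 1.09 at 0 h, 1.03 and 0.709 at 2 h, 1.37 and 1.65 at 4 h, 2.26 and 3.14 at 6 h, and 3.54 and 2.63 at 8 h. The ratio of Rbm8a to Eif4a3 on ribosomes was 0.0737 and 0.103 at 0 h and 0.182 and 0.387 at 8 h, and in total RNA 0.110 and 0.0945 at 0 h and 0.276 and 0.247 at 8 h. The 8 h libraries lay above those at 0 h in both kinds of RNA, and the ribosome-bound pair at 8 h lay far apart.

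**Figure D2:**
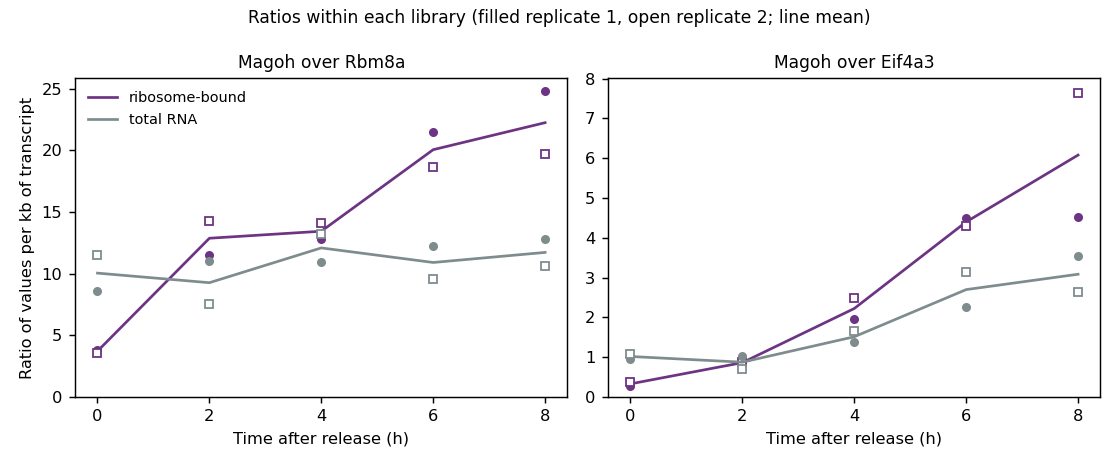
Ratio of the values per kb of transcript within each library, Magoh over Rbm8a (left) and Magoh over Eif4a3 (right), against hours after release. Filled and open symbols are replicates 1 and 2, lines are means, purple is ribosome-bound and grey total RNA. Magoh over Rbm8a on ribosomes goes from 3.71 to 22.3, and in total RNA it stays between 7.54 and 13.2 in all 10 libraries.

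The level on ribosomes relative to that in total RNA moved further for Magoh than for its partners, and differed most from theirs at 0 h. The tables were normalized separately, so this log2 ratio has meaning only against other genes, whose median was near -0.21 at each time. Magoh was at -1.11 at 0 h, the 8.05th percentile of 7346 genes, and at 0.38 at 2 h, the 83.3rd percentile. It then reached 0.79, 1.08 and 1.04 at the 3 later times, or the 94.3rd, 97.9th and 97.1st percentiles. Rbm8a stayed between -0.10 (2 h) and 0.62 (4 h, the 90.5th percentile), and Eif4a3 between 0.10 (8 h) and 0.49 (0 h), both above the median at every time. At 2 h Eif4a3 (0.38, the 83.2nd percentile) stood where Magoh did. Of the 3 members only Magoh lay below the median of all genes, and only at 0 h.

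The difference of the log2 changes, ribosome-bound minus total RNA, is the log2 ratio above minus its value at 0 h. It restates those ratios with a standard error and is not a second measure. For Magoh it was 1.49, 1.90, 2.19 and 2.15 at 2, 4, 6 and 8 h, each with a standard error of 0.32. For Rbm8a it was -0.36, 0.36, -0.07 and -0.13 (SE 0.44), and for Eif4a3 -0.11, -0.24, -0.13 and -0.39 (SE 0.31). Over all genes 0.0953% passed the test of this difference at 2 h, 5.1% at 4 h, 11.7% at 6 h and 21% at 8 h, shares that are not read against Magoh for the reason given above.

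**Figure D3:**
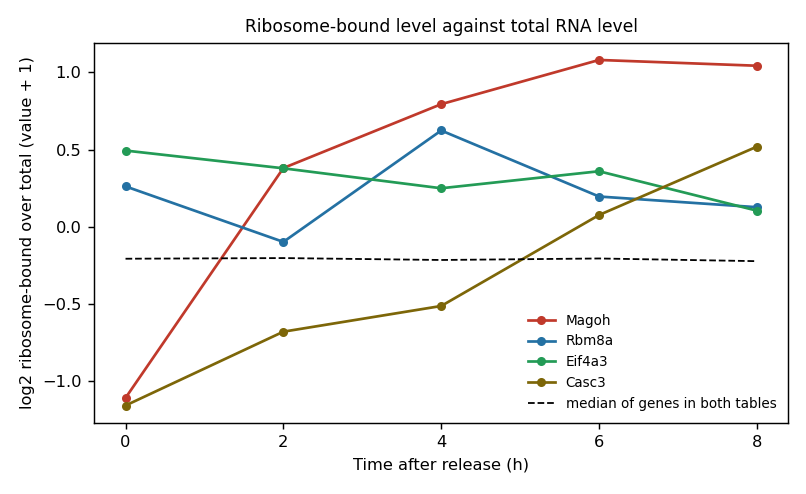
Log2 of ribosome-bound over total RNA (group means of log2 of value + 1, 2 libraries each) against hours after release for the 3 members and Casc3, with the median of the 7346 genes listed in both tables as a dashed line. Magoh crosses from -1.11 to 0.38 within 2 h, Casc3 goes from -1.16 at 0 h to 0.52 at 8 h, and Rbm8a and Eif4a3 stay at -0.10 or above.

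Casc3 (ENSMUSG00000078676.9, chromosome 11, 98804905 to 98833814, plus strand), the peripheral core protein, was not chosen for its values and was tested. Its ribosome-bound values were 6.98 and 12.5 at 0 h, 11.95 and 13.3 at 2 h, 17.97 and 14.3 at 4 h, 20.3 and 17.2 at 6 h, and 16.7 and 27.2 at 8 h. Its libraries at 4, 6 and 8 h lay above both at 0 h. The log2 change at 8 h was 1.11 ± 0.40 (limma adjusted p = 0.0315), after 0.39, 0.71 and 0.92 at 2, 4 and 6 h, which did not pass (adjusted p = 0.67, 0.239 and 0.0909). In total RNA it went from 25.4 and 19.3 at 0 h to 11.9 and 17.9 at 8 h, a change of -0.57 (limma adjusted p = 0.399). The test of the difference between the changes on ribosomes and in total RNA gave 1.68 ± 0.52 (limma adjusted p = 0.0230).

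Both calls for Casc3 rested on single libraries. On ribosomes the change was 0.73 when 0 h lacked replicate 1 and 0.77 when 8 h lacked replicate 2, with limma adjusted p of 0.209 and 0.259, and with only the 0 h and 8 h libraries in the fit the adjusted p was 0.0682. The difference from total RNA was 1.30 and 1.34 without those libraries, 1.49 without total RNA 0 h replicate 1 and 1.40 without total RNA 8 h replicate 1 (limma adjusted p = 0.103, 0.125, 0.0975 and 0.0977). Casc3 also shared 445 of its 3914 words of 50 bases with Gm12359.

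Genes with a time course most like that of Magoh were ranked by Pearson r over the 10 ribosome-bound libraries, among 7542 other genes and with no test. The 5 highest were Psma2 (0.994), a proteasome core subunit, Zfp407 (0.993), a zinc finger protein, Arl6 (0.990), a small GTPase of the ciliary BBSome pathway, Smco4 (0.986), and Snrnp27 (0.986), a protein of the spliceosomal tri-snRNP. Their log2 differences at 8 h were 1.41, 1.23, 1.88, 1.81 and 1.29, each smaller than that of Magoh. In the same order their changes in total RNA at 8 h were 0.45, -0.11, 0.63, 1.28 and 0.48. In this ranking Casc3 stood 472nd (0.886), Rbm8a 1129th (0.747) and Eif4a3 5759th (-0.597). A like shape was common, with 122 genes above 0.95, so r says little of any single gene, and libraries of a time share their stage. Pearson r compares shape and not size. By distance over the log2 changes the 5 genes named by r stood between 48th (Smco4) and 389th (Zfp407). The 5 nearest by distance held 0 of them.

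The wider pathway was taken from 7 further lists that with Casc3 held 67 genes listed on ribosomes beside the members. At 8 h on ribosomes 17 of these 67 rose and 18 fell, or 25.4% and 26.9%, beside 20.2% and 21.8% of all genes (limma, adjusted p under 0.05). Their median log2 change was 0.11, against -0.06 over all genes. Fewer had passed earlier, with 1 up and 1 down at 2 h (0.729% and 0.742% of all genes), 10 and 6 at 4 h (9.16% and 6.56%), and 12 and 10 at 6 h (14.6% and 13.3%). With libraries centred on their medians the shares of all genes at 2 h were 1.06% up and 0.663% down. Without 0 h replicate 2 the counts at 8 h were 11 and 11, and without 8 h replicate 2 they were 11 and 13. The shares of pathway genes that changed were thus near those of all genes. The 8 h shares of all genes, 20.2% up and 21.8% down, also stand beside the counts of each list below.

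Assembly and peripheral factors of the complex split evenly, with 3 of 10 up, 3 down and 4 that did not pass. Srrm1, a splicing coactivator that binds the complex, had ribosome-bound values of 146 and 95.4 at 0 h and 274 and 389 at 8 h (log2 change 1.46 ± 0.20, limma adjusted p = 2.56e-05). Rnps1, an activator of splicing and decay, went from a mean of 45.2 to 99.96 (1.13 ± 0.24), and Cwc22, which brings Eif4a3 to the spliceosome, from 108 to 236 (1.11 ± 0.17). The 3 that fell were Cwc27, the spliceosomal partner of Cwc22, from 52.4 to 26.6 (-0.95 ± 0.25), Aqr, a spliceosomal helicase, from 135 to 79.2 (-0.77), and Luc7l3 (-0.49). Luc7l3 did not pass without 0 h replicate 2, without 8 h replicate 1, or with only these 2 groups in the fit.

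Of the removal and import factors, Tnpo1, a nuclear import receptor, rose from 365 and 436 at 0 h to 962 and 910 at 8 h on ribosomes (1.23 ± 0.16, limma adjusted p = 1.20e-05). Ipo13, which imports the Magoh-Rbm8a dimer, and Pym1 did not pass. Pym1 values ranged from 12.1 to 52.1 on ribosomes, and its duplicates lay far apart at most times.

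Nonsense-mediated decay factors mostly fell where they passed, with 1 of 13 up and 6 down on ribosomes at 8 h and a median of -0.56. Of all genes 20.2% rose and 21.8% fell there. In the test beyond total RNA at 8 h, 0 of the 13 passed upward and 2 downward, beside 11.6% and 9.43% of all genes. Upf3b, the factor that docks on the exon junction complex, fell from 52.5 and 29.3 to 10.3 and 10.1 (-1.85 ± 0.39, adjusted p = 0.00115 by limma). Its relative Upf3a went from a mean of 15.98 to 5.46 (-1.40), a call lost without 0 h replicate 2 or 8 h replicate 1. Smg8, a regulator of the Upf1 kinase, rose by 0.58, a call lost without 0 h replicate 2 or 8 h replicate 2.

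Export factors divided into 5 up, 5 down and 7 that did not pass, of 17. The largest rise was in Gle1, a nuclear pore factor that activates the export helicase, from 75.6 and 114 to 278 and 335 (1.71 ± 0.20, limma adjusted p = 4.82e-06). Thoc2, the scaffold of the THO complex, rose from a mean of 98.3 to 226 (1.18), and Ddx39 by 1.10. Chtop fell from 60.7 to 21.9 (-1.43), Thoc5 by 1.19 on the log2 scale, and Thoc3 from 95.6 to 44.3 (-1.09), so subunits of THO moved in both directions. The calls of Ddx39 and Thoc5 were lost without 0 h replicate 2 or 8 h replicate 2.

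SR proteins, the splicing factors that pack with exon junction complexes on mRNA, had 5 of 8 up, 0 down and a median of 0.97. Of all genes 20.2% rose and 21.8% fell on ribosomes at 8 h. In the test beyond total RNA at 8 h, 1 of the 8 passed upward and 1 downward, beside 11.6% and 9.43% of all genes. Srsf7 went from 11.3 and 10.7 to 50.9 and 58.4 on ribosomes (2.21 ± 0.30, limma adjusted p = 1.68e-05), and Srsf10 from a mean of 44.1 to 103 (1.205). Srsf11 rose by 1.09, a call lost when any of the 4 libraries was left out. Among cap and tail binding proteins 1 of 7 rose and 2 fell, with Pabpc1l, the poly(A)-binding protein of oocytes, from 540 and 477 to 150 and 142 (-1.79 ± 0.15, limma adjusted p = 8.53e-08) and Pabpc4 from a mean of 152 to 79.1 (-0.92). Ctif, which acts in translation from the nuclear cap complex, rose by 0.64, a call lost without 0 h replicate 2 or 8 h replicate 1. Of 8 relatives and partners of eIF4A, the translation helicase family to which Eif4a3 belongs, 0 rose and 2 fell, Eif4g1 (-0.50) and Eif4b (-0.38). Both of these calls were lost with only the 2 groups in the fit and without 0 h replicate 2, 8 h replicate 1 or 8 h replicate 2, and that of Eif4b also once libraries were centred on their medians or the replicate was a block.

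**Figure D4:**
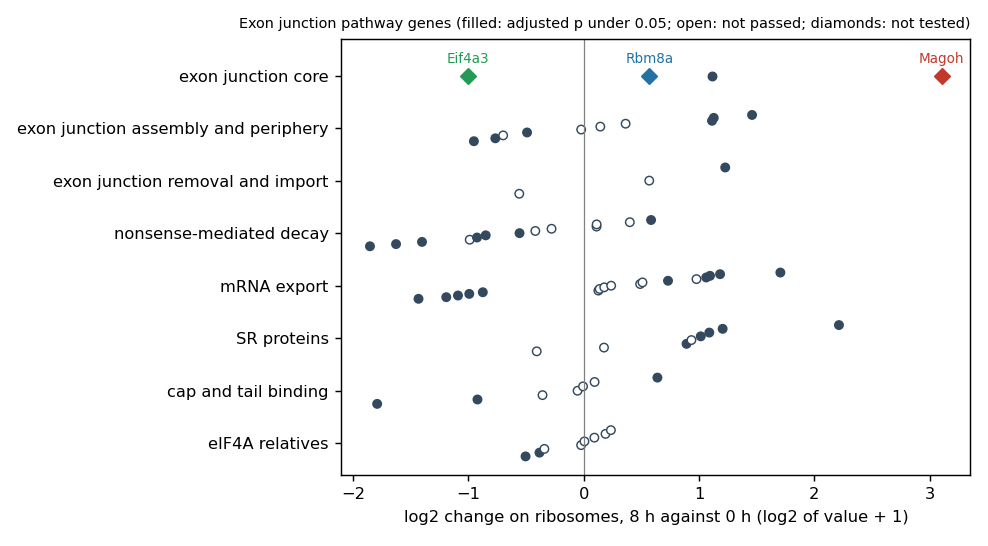
Log2 change on ribosomes at 8 h against 0 h (log2 of value + 1) for each listed gene of the pathway, 1 row per list. Filled circles passed (limma adjusted p under 0.05), open circles did not, and diamonds are the 3 untested members, with Casc3 as the filled circle of the core row. Magoh, chosen for its rise on ribosomes, is at 3.10, and the highest pathway gene, Srsf7, is at 2.21. Eif4a3 at -1.005 and Rbm8a at 0.57 lie within the spread.

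In total RNA the pathway barely moved past the threshold at 8 h. Of 69 listed genes beside the members 1 rose and 0 fell by limma, beside 0.947% and 3.02% of all genes, and 14 had an unadjusted p under 0.05. The gene that rose was Gle1, from 147 and 121 at 0 h to 207 and 201 at 8 h (0.60, limma adjusted p = 0.0438), a call lost when any of the 4 libraries was left out or only these 2 groups were fitted. The test of the change on ribosomes beyond total RNA at 8 h passed for 11 of 67 pathway genes upward and 9 downward, beside 11.6% and 9.43% of all genes.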

How the data were processed

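Values were taken as the authors deposited them, as a scaled CPM signal in separate ribosome-bound and total RNA tables, with no further normalization. The submitters' processing notes name FastQC, Trimmomatic 0.36, HISAT2, SAMtools, HTSeq, edgeR, limma and the build mm10; their settings are not stated there. The description of total RNA samples reads as ribosome-bound too, and their titles and the study design were followed. Genes with a value of 1 or more in at least 2 libraries were fitted on log2(value + 1) with limma 3.58.1 (R 4.3.3, mean-variance trend), 1 model over the 5 times for each table and a joint model for the difference between tables. P-values are two-sided, with Benjamini-Hochberg adjustment over all genes of a comparison and a threshold of 0.05. A log2(value + 1) change understates low genes. Scripts were tested on simulated data. The members, lists and tests were chosen with earlier results of these data known. Named genes were the core, up to 3 genes per list and direction past the threshold at 8 h by size, and the 5 most like Magoh; 1 of these genes is not reported here. Alternatives covered the pseudocount, filters, centring, a replicate block, the groups fitted and each replicate left out. Sites and lengths came from GENCODE vM21 transcripts.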

Additional observations from a re-analysis of the deposited data

Results flagged for a closer look

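For 15 of the named pathway genes the log2 change from 0 h to 8 h differed between ribosome-bound and total RNA by the interaction test (limma, adjusted p under 0.05 over 7346 genes). These genes had been named for passing on ribosomes at 8 h, which is part of the same difference, so their number is not read as a result; of all 7346 genes 21% passed, and of 67 pathway genes 11 upward and 9 downward. The difference, ribosome-bound minus total RNA, was positive for Thoc2 (1.83), Srsf7 (2.00), Casc3 (1.68), Ddx39 (1.61), Srrm1 (1.49), Tnpo1 (1.28), Rnps1 (1.15), Gle1 (1.10), Cwc22 (0.88) and Ctif (0.82). It was negative for Pabpc1l (-1.90), Upf3b (-1.60), Cwc27 (-1.53), Thoc3 (-1.15) and Eif4g1 (-0.72). Leaving out single libraries ended the call for 7 of them. Casc3 and Rnps1 were lost without ribosome-bound 0 h replicate 1 or 8 h replicate 2, or without total RNA 0 h replicate 1 or 8 h replicate 1. Upf3b was lost without 6 of the 8 libraries and Eif4g1 without 7 of them. Ddx39 was lost without ribosome-bound 8 h replicate 2, Thoc3 without total RNA 0 h replicate 2 or 8 h replicate 1, and Ctif without ribosome-bound 8 h replicate 1, total RNA 0 h replicate 2 or total RNA 8 h replicate 1.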

How the results depend on the processing

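Leaving out 1 library at a time moved the members' log2 differences from 0 h on ribosomes over these ranges at 2, 4, 6 and 8 h: Magoh 1.09 to 1.94, 2.15 to 3.001, 2.74 to 3.59 and 2.68 to 3.53; Rbm8a -0.69 to 0.26, 0.28 to 1.23, 0.29 to 1.24 and 0.095 to 1.04; Eif4a3 -0.10 to 0.41, -0.39 to 0.12, -0.79 to -0.28 and -1.33 to -0.68. Beyond total RNA they were 1.07 to 1.91, 1.48 to 2.33, 1.77 to 2.61 and 1.73 to 2.58 for Magoh, -0.83 to 0.11, -0.11 to 0.84, -0.54 to 0.41 and -0.61 to 0.34 for Rbm8a, and -0.37 to 0.14, -0.50 to 0.011, -0.39 to 0.12 and -0.71 to -0.067 for Eif4a3. In total RNA Magoh at 2 h ranged from -0.17 to 0.22 and turned negative without 0 h replicate 1 (-0.05) or 2 h replicate 1 (-0.17), and at 8 h it ranged from 0.83 to 1.07. Counts of genes that passed in total RNA ranged from 0 to 1 at 4 h, 0 to 11 at 6 h and 52 to 414 at 8 h, where 0, 16 and 314 passed with all libraries; the lowest at 8 h was without 0 h replicate 1. On ribosomes 111 genes passed at 2 h, but 15 once replicate 2 of 2 h was left out, 16 for replicate 1 of 2 h and 171 for replicate 1 of 0 h; at 4 h 1186 passed, and 461 without 4 h replicate 1; at 6 h 2108 passed, and 1269 or 1267 without replicate 1 or 2 of 6 h. Pathway genes up and down at 8 h ranged from 11 to 15 and 11 to 17 on ribosomes, and from 0 to 0 and 0 to 2 in total RNA.

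With only the compared groups in the fit, 2 genes passed in total RNA at 4 h, 164 at 8 h and 0 pathway genes rose there, Magoh gave 0.95 at 8 h (limma adjusted p = 0.0508), and on ribosomes 38 genes passed at 2 h and 572 at 4 h. Ranking likeness to Magoh by distance over the 4 log2 changes shared 0 of its 5 nearest genes with the 5 highest by r.

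Same-lettered libraries shared little deviation from their group means, with correlations from -0.107 to 0.115. Over 0.1 were 0 of 10 pairs on ribosomes, 1 of 10 in total RNA and 0 of 5 between the tables. A low correlation over all genes cannot show that same-lettered libraries came from separate oocytes. The main joint model treated ribosome-bound and total RNA libraries as independent. With the replicate as a block, Magoh in total RNA at 8 h gave 0.95 (limma adjusted p = 0.0204), 313 genes passed there, and 57 passed on ribosomes at 2 h. Count models planned with edgeR and DESeq2 were not run, since the deposited values are scaled. The reads inferred from their spacing were not accepted as recovered counts by a check of the unit. With 2 libraries a group, the spread between duplicates limits what can be seen.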
